A study of Homo sapiens with 6 samples.

Results

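The HOX genes were examined in HCT-8, a colorectal cancer cell line of human origin, after lowering of PNISR, a serine and arginine rich nuclear protein linked to splicing. The members were 38 listed genes of the HOXA, HOXB, HOXC and HOXD clusters among the 60664 gene IDs of the count table, and those with at least 10 reads in at least 3 of the 6 libraries were described, which left 35 (10 HOXA, 9 HOXB, 8 HOXC and 8 HOXD genes). The shPNISR group held 3 libraries from cells given a plasmid with a hairpin against PNISR, and the shNC group held 3 libraries from cells given the control hairpin plasmid. The labels name a single PNISR hairpin plasmid and a single cell line, and give no time after transfection. They do not say whether the libraries of a group came from separate cultures, and each p-value therefore reflects no more than the spread among the libraries, which may be technical.

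HOX genes encode homeodomain transcription factors that give cells their position along the body axis. They lie in 4 clusters, and within a cluster the paralog number runs from the genes used towards the head (low numbers) to those used towards the tail (high numbers), which are the ones known for patterning the hindgut, the limb ends and the genital tract. HOX proteins bind AT-rich DNA together with PBX and MEIS proteins. The clusters are held silent by Polycomb and active by trithorax and MLL complexes, and in embryos they are opened by retinoic acid and by the caudal (CDX) factors.

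Total counts were between 15049485 and 17977803 per library. PNISR had 18.5, 20.7 and 27.6 CPM (counts scaled to the library total with TMM factors) in shPNISR 1 to 3, against 55.3, 50.2 and 62.8 CPM in shNC 1 to 3, and it fell in shPNISR to 39.7% of the shNC level (log2 fold change -1.33 ± 0.15 SE, edgeR adjusted p = 8.73e-05). The groups were separated along the first principal component except for shNC 2, whose score of 0.79 lay between 16.89 to 24.63 in shPNISR and -35.17 and -31.22 in the other shNC libraries. The mitochondrial share of counts was 1.61% to 2.00% in shPNISR and 1.80% to 2.48% in shNC, with the lowest shNC share in shNC 2. Of 10 colorectal epithelial markers 9 had enough reads to be tested, among them CDX2 at 83.4 ± 13.1 CPM in shPNISR and 80.3 ± 10.4 CPM in shNC (SD, n = 3 each), while KRT20, a keratin of differentiated colon epithelium, was at 0.346 ± 0.0768 CPM in shPNISR and 0.123 ± 0.130 CPM in shNC, with 0 to 7 counts a library. PTPRC, which marks leukocytes, was at 0 in all 6 libraries. Summed fibroblast markers were 25.2 to 29.6 CPM in shPNISR and 16.9 to 25.6 CPM in shNC, with none of 5 tested members called by edgeR, DESeq2 or limma voom (1 at an unadjusted p under 0.05) and 2 of 10 at 0 throughout. Summed leukocyte markers were 5.98 to 7.26 CPM in shPNISR and 4.64 to 5.96 CPM in shNC, and summed endothelial markers were 1.41 to 1.66 CPM in shPNISR and 0.718 to 1.49 CPM in shNC. The part of these other-cell markers in the HOX results was not tested.

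HCT-8 cells expressed genes of all 4 clusters, and the highest levels belonged to central and tail-end genes. Levels of different genes are given as CPM per kilobase of joined exons. HOXB9, which patterns the ribs in mouse, was first with 62.5 ± 3.13 in shPNISR and 71.9 ± 0.874 in shNC. HOXD13, the last gene of its cluster and a gene of digit and hindgut patterning, was next with 48.7 ± 0.873 in shPNISR and 67.1 ± 0.858 in shNC (SD, n = 3 each). By this length these 2 genes stood above all other members in both groups and differed from each other by more than their SDs in each group. Per kilobase of coding sequence HOXB9 stayed first, while the place of HOXD13 depended on the group. There HOXD13 lay just below HOXB6 in shPNISR (106.0 against 107.4) and above it in shNC (146.0 against 140.3).

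The order of HOXB7 (35.4 ± 4.26 CPM per kilobase in shPNISR, 32.1 ± 2.80 in shNC) and HOXB6 (27.7 ± 1.59 in shPNISR, 36.2 ± 1.87 in shNC) was opposite in the groups, and their SD ranges touched in shNC but not in shPNISR. This order depends on the length used. Per kilobase of coding sequence HOXB6 stood above HOXB7 in both groups (107.4 against 83.0 in shPNISR, 140.3 against 75.3 in shNC). By coding length HOXB3 also moved, from rank 11 to 6. HOXA10 (18.8 ± 0.999 in shPNISR, 24.7 ± 4.49 in shNC), HOXA5 (16.0 ± 0.854 in shPNISR, 26.6 ± 7.09 in shNC) and HOXB8 (21.4 ± 0.760 in shPNISR, 19.5 ± 1.16 in shNC) followed, and the SD ranges of HOXA10 and HOXA5 overlapped in shNC. HOXB5 and HOXA11 were close to each other, with 14.4 ± 1.25 and 12.2 ± 1.29 CPM per kilobase in shPNISR, against 14.9 ± 1.47 and 14.7 ± 1.91 in shNC. Below them the order was shallow. The 15 genes HOXD10, HOXB3, HOXB13, HOXC9, HOXC10, HOXC4, HOXA9, HOXB4, HOXD9, HOXC13, HOXA6, HOXA13, HOXB2, HOXC11 and HOXC6 ran from 9.75 down to 3.84 CPM per kilobase in shPNISR and from 12.4 down to 3.77 in shNC, and many neighbours among them lay within 1 SD of each other. HOXD11, HOXA3, HOXC8, HOXD8, HOXD4, HOXA7 and HOXA4 lay between 2.99 and 1.27 in shPNISR and between 3.93 and 2.14 in shNC.

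The lowest described genes were HOXD3, HOXA2, HOXD1 and HOXC12, all at or under 0.696 CPM per kilobase in shPNISR and at or under 1.02 in shNC. Just inside the count rule lay HOXD1 with 21, 14 and 10 counts in shPNISR, against 11, 15 and 10 in shNC, and just outside it HOXD12 with 12, 4 and 9 counts in shPNISR, against 12, 4 and 6 in shNC. HOXC5 had 4, 2 and 1 counts in shPNISR and 5, 3 and 4 in shNC. It shares 59.9% of its exon bases with a transcript of the same strand that had 0 counts in every library. HOXD3 and HOXD4 share 62.2% and 80.5% of their exon bases with a gene of the same strand that is absent from the count table. An antisense gene with 0 counts in every library lies opposite 50.1% of HOXD1 exon bases. How reads in shared bases were counted is not stated, so the levels of HOXC5, HOXD1, HOXD3 and HOXD4 may be too low. HOXB1, a hindbrain gene, had no read in shPNISR and 3 reads in all in shNC, so it was not detectable at this depth in 5 libraries.

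**Figure D1:**
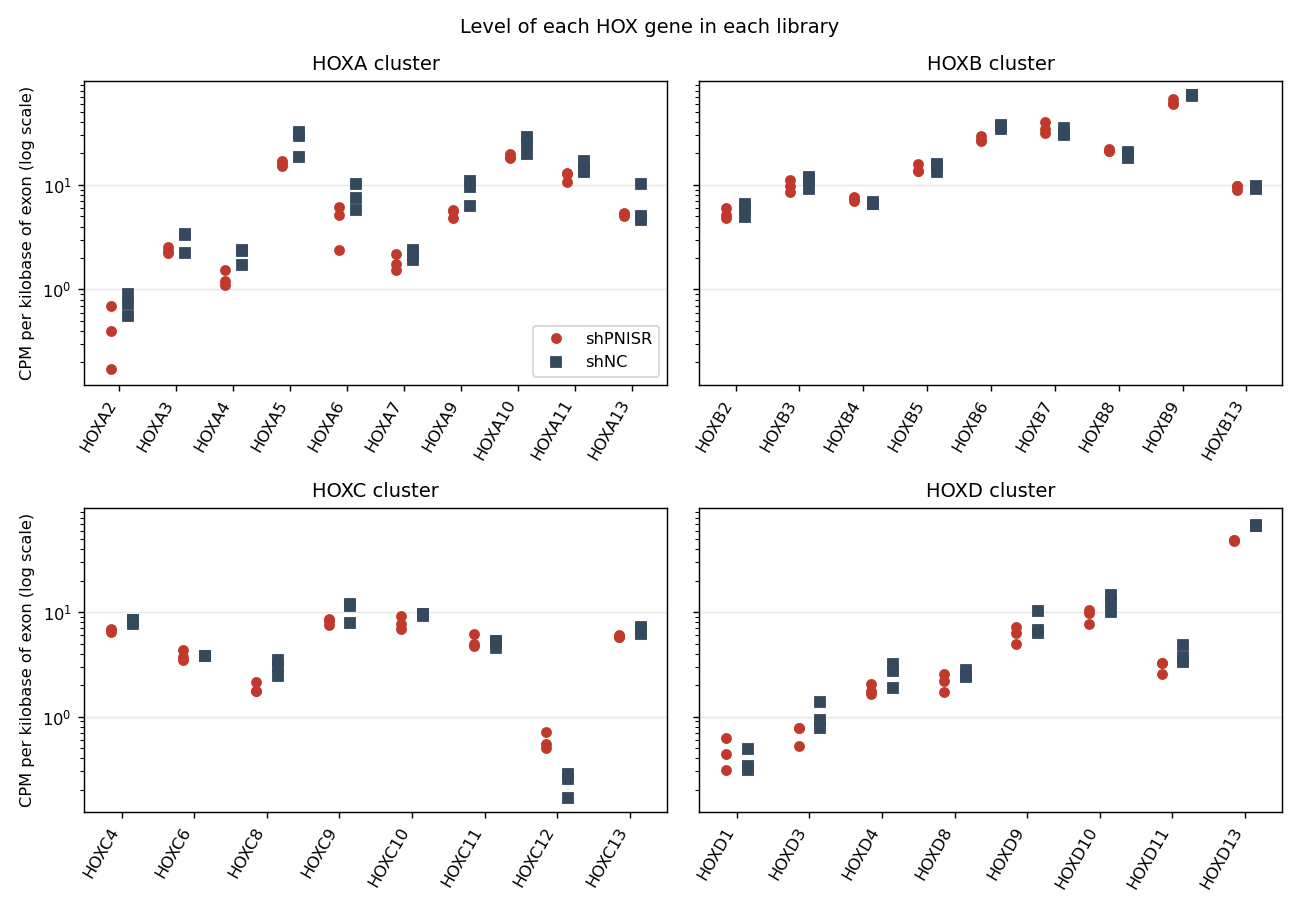
CPM per kilobase of joined exons (log axis) of the 35 described HOX genes in each library, by cluster and paralog number, with shPNISR as circles and shNC as squares. HOXB9 and HOXD13 are the highest in both groups, and HOXC12 is the lowest gene in shNC.

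Setting shPNISR against shNC addresses which HOX genes differ once PNISR is lowered. HOXA5, HOXA9 and HOXD13 fell and HOXC12 rose, while 31 of the 35 tested HOX genes did not pass (two-sided edgeR quasi-likelihood test, p adjusted by Benjamini-Hochberg over all 16102 tested genes, threshold 0.05). Of all tested genes, 0.832% were lower and 2.30% were higher by the same test. The fitted log2 fold change was below 0 in 27 of the 35 HOX genes (77.1%), against 52.1% of all tested genes, and its median was -0.28, against -0.01 over all tested genes. Neighbouring HOX genes share regulatory domains and in part exons, so they are not independent of one another. In bulk RNA, a smaller number of cells expressing a gene and less RNA per cell cannot be told apart.

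**Figure D2:**
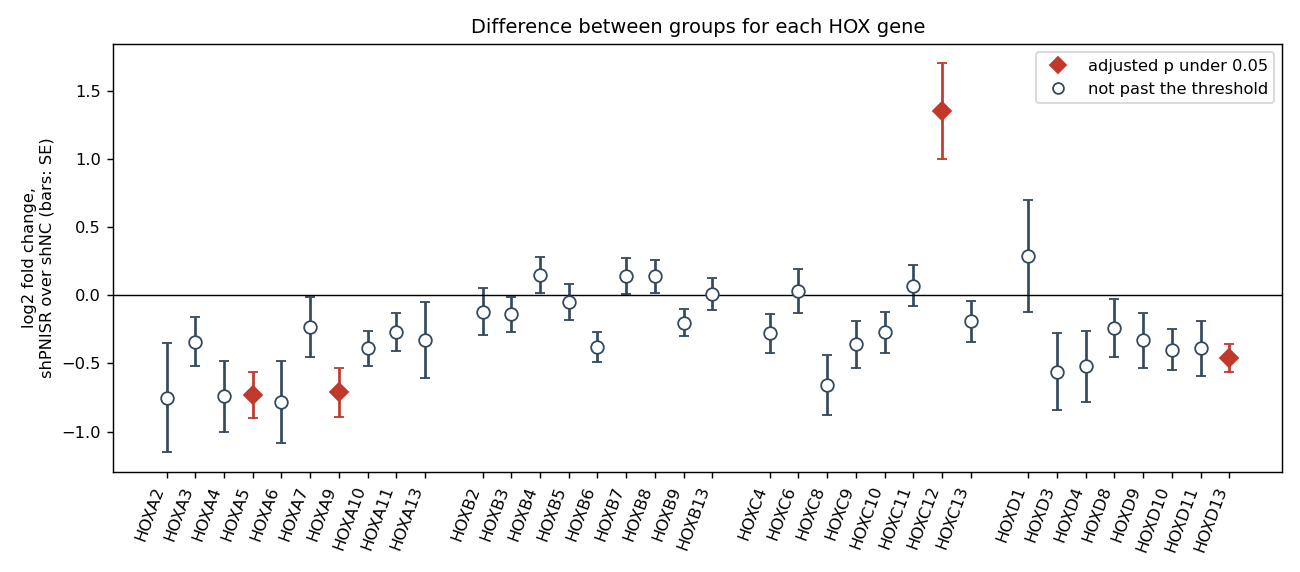
Log2 fold change of shPNISR over shNC (points, bars are SE, n = 3 libraries each) for the 35 HOX genes by cluster and paralog number. Filled diamonds mark HOXA5, HOXA9, HOXC12 and HOXD13, the genes past the adjusted p of 0.05, and all 10 HOXA genes lie below 0.

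HOXA cluster genes, on chromosome 7 (27100354 to 27200106, GRCh38), were fitted below 0 in 10 of 10 cases, with a median of -0.55. Of these, 2 passed. HOXA5, which in mouse is needed for the airway and the thoracic skeleton, had 26.0, 28.9 and 27.2 CPM in shPNISR 1 to 3, against 49.7, 31.8 and 54.8 CPM in shNC 1 to 3. The groups did not overlap, and shNC 2 lay close to the shPNISR libraries. HOXA5 fell in shPNISR to 60.2% of the shNC level (27.4 ± 1.46 against 45.4 ± 12.1 CPM, SD, n = 3 each), with a log2 fold change of -0.73 ± 0.17 (SE) and an edgeR adjusted p of 0.0246. Leaving out shNC 1, shPNISR 1 or shPNISR 3 ended the call, with adjusted p of 0.0891, 0.155 and 0.0999 by edgeR.

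HOXA9, known for keeping blood progenitors immature together with MEIS1, showed nearly the same values relative to its own level. It had 14.6, 17.2 and 17.5 CPM in shPNISR, against 28.7, 19.1 and 33.0 CPM in shNC, again without overlap and with shNC 2 nearest to shPNISR. The means were 16.4 ± 1.59 CPM in shPNISR and 26.9 ± 7.13 CPM in shNC (SD, n = 3 each), which is 61.0% of the shNC level and a log2 fold change of -0.71 ± 0.18 (SE, edgeR adjusted p = 0.0355). The HOXA9 call was the less stable of the pair: 7 of 16 alternatives ended it, namely library totals as the scaling (adjusted p = 0.0713), limma voom (adjusted p = 0.0569) and leaving out any library but shNC 2 (edgeR adjusted p from 0.0596 to 0.206). Of its exon bases, 13.9% also belong to the antisense gene HOXA10-AS, which had 96, 73 and 72 counts in shPNISR and 86, 43 and 72 in shNC. Whether strand was used in counting is not stated in the labels, so reads of such pairs cannot be told apart.

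The window before the start of HOXA9 (250 bases before to 50 after, RefSeq, chr7:27165488-27165787, minus strand of GRCh38.p14) is shown because HOXA9 fell and because HOX and CDX factors bind AT-rich cores. Capitals mark TAAT, the homeodomain core, and TTTAT, the CDX core, on either strand, so that they also read ATTA and ATAAA.
HOXA9: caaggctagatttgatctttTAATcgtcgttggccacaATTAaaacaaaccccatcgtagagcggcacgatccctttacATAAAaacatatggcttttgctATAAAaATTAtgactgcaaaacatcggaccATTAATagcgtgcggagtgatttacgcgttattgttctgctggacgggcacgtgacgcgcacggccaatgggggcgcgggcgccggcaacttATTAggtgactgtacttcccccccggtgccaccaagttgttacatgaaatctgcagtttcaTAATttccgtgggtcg
It holds 7 matches to TAAT and 2 to TTTAT, and 1 match to TATAAA that overlaps a CDX core. RefSeq windows were matched for 20 of the 38 listed genes, which have 26 distinct windows in all. Most belong to HOXA and HOXD genes, and HOXA3 has more of them than any other gene. HOXB1 is the only HOXB gene with a window, HOXC4 and HOXC5 share theirs, and the called genes HOXA5 and HOXC12 have none. The shares below therefore describe these windows and not the HOX genes equally. TAAT is in 20 of these 26 windows (76.9%), against 50.3% of 34796 windows of all genes, and TTTAT is in 14 of 26 (53.8%), against 35.0%. TATAAA is in 5 of 26 (19.2%), against 11.6%, and GGGCGG, the GC box, in 13 of 26, against 44.9%, all counted on both strands. A match describes letters only, and binding was not measured.

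The other HOXA genes named for their level or their separation did not pass. HOXA10, a gene of uterine development and the highest of the cluster per kilobase in shPNISR, had 66.8, 73.9 and 68.6 CPM in shPNISR, against 94.2, 73.6 and 106.6 CPM in shNC. The shNC 2 value lay within the shPNISR range, so the groups overlapped (log2 fold change -0.39 ± 0.13, edgeR adjusted p = 0.109). HOXA4 had 2.66, 1.92 and 2.08 CPM in shPNISR, against 4.09, 2.98 and 4.13 CPM in shNC, with no overlap (-0.74 ± 0.26, edgeR adjusted p = 0.129), and shares 31.0% of its exon bases with a transcript of the same strand that had 0 counts in every library. HOXA11, a gene of the forearm and the uterus, had 29.3, 30.3 and 24.7 CPM in shPNISR, against 32.6, 30.4 and 38.9 CPM in shNC, where shPNISR 2 and shNC 2 all but touched (-0.27 ± 0.14, edgeR adjusted p = 0.312), and 31.1% of its exon bases lie opposite the antisense HOXA11-AS. HOXA6 had the lowest fitted value of all HOX genes, -0.78 ± 0.30, with 6.63, 3.04 and 7.91 CPM in shPNISR, against 13.1, 9.58 and 7.39 CPM in shNC (edgeR adjusted p = 0.201). The HOXA6 groups overlapped through shPNISR 3, which lay just above shNC 3. The antisense HOXA-AS3 lies opposite 39.3% of HOXA6 exon bases and 62.5% of those of HOXA7. HOXA-AS3 had 134, 112 and 119 counts in shPNISR, against 235, 135 and 165 in shNC (-0.56 ± 0.19, edgeR adjusted p = 0.112). If strand was not used, its reads cannot be told apart from those of HOXA6 and HOXA7 there. HOXA2, HOXA3 and HOXA7 had log2 fold changes of -0.75 ± 0.40, -0.34 ± 0.18 and -0.23 ± 0.22.

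HOXA13, the last gene of the cluster and one of limb-end and hindgut patterning, was named after its values were seen. It had 27.5, 25.9 and 26.6 CPM in shPNISR, against 25.4, 52.0 and 23.5 CPM in shNC, so shNC 2 held about as much as the other shNC libraries together. Its log2 fold change was -0.33 ± 0.28 with all libraries and 0.12 without shNC 2, so the direction for HOXA13 rests on that library. Among the 10 HOXA genes, shNC 2 lay below both other shNC libraries in 8 and above both in 1, which was HOXA13.

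**Figure D3:**
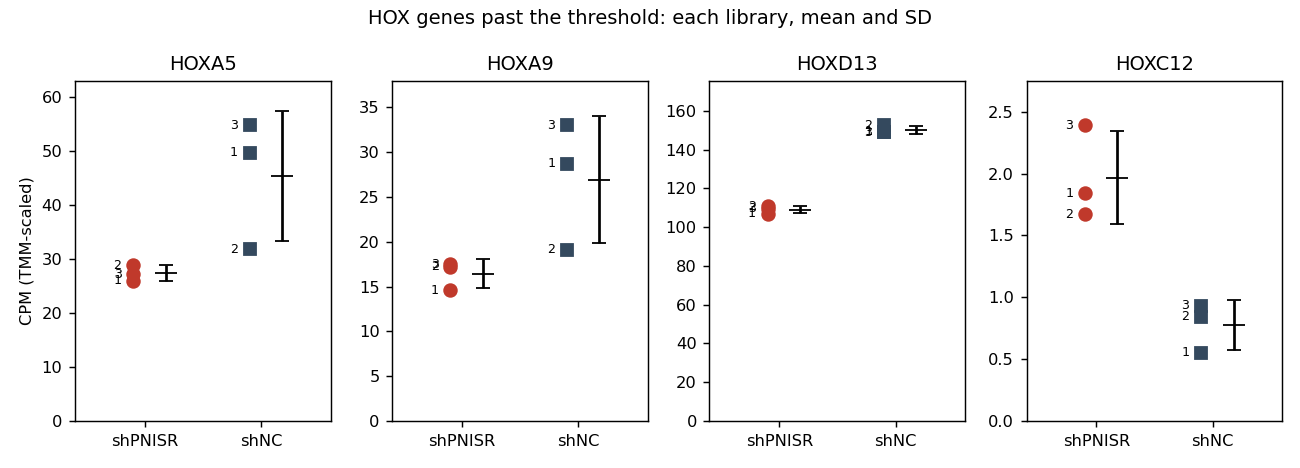
TMM-scaled CPM of HOXA5, HOXA9, HOXD13 and HOXC12 in each library (numbered points), with the mean and SD of 3 libraries beside them and shPNISR left of shNC. In HOXA5 and HOXA9 the shNC 2 point lies close to shPNISR, while in HOXD13 the 3 shNC points coincide near 150.2 CPM.

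HOXD cluster genes, on chromosome 2 (176092891 to 176190907, GRCh38), were fitted below 0 in 7 of 8 cases, with a median of -0.40, and 1 of them passed. HOXD13 had 106.9, 110.7 and 109.5 CPM in shPNISR, against 149.2, 152.5 and 149.0 CPM in shNC. The libraries within each group were nearly alike, and shNC 2 was the highest of all. HOXD13 fell in shPNISR to 72.6% of the shNC level (109.0 ± 1.96 against 150.2 ± 1.92 CPM, SD, n = 3 each), with a log2 fold change of -0.46 ± 0.10 (SE) and an edgeR adjusted p of 0.0157. Leaving out shNC 1, shPNISR 1 or shPNISR 3 ended the call by edgeR (adjusted p of 0.0718, 0.123 and 0.0523) with the log2 fold change between -0.47 and -0.44. HOXD13 shares no exon base with another annotated gene, and it has the largest count of the 4 genes called, with 1785 to 1805 reads in shPNISR and 2238 to 2703 in shNC.

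The RefSeq window of HOXD13 (chr2:176092471-176092770, plus strand of GRCh38.p14) is shown beside that of HOXA9 with the same marks in capitals, since both genes fell.
HOXD13: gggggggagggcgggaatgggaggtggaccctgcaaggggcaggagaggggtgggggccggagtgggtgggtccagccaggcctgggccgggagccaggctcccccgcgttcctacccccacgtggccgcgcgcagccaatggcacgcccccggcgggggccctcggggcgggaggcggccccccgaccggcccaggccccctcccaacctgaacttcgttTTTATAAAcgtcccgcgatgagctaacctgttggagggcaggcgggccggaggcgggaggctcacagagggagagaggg
It is GC-rich, with 74.0% G and C against 48.0% in the HOXA9 window, and holds no TAAT. Its 2 matches to TTTAT, 1 on each strand, overlap each other and the 2 matches to TATAAA, and it has 2 matches to GGGCGG.

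HOXD10, a gene of lumbar motor neurons, is the next highest of the cluster per kilobase. It had 26.6, 20.7 and 28.2 CPM in shPNISR, against 38.9, 27.2 and 33.9 CPM in shNC, and shPNISR 3 lay above shNC 2 (log2 fold change -0.40 ± 0.15, edgeR adjusted p = 0.173). HOXD11, which with HOXA11 shapes the forearm in mouse, had 6.81, 5.33 and 6.81 CPM in shPNISR, against 10.1, 7.77 and 6.99 CPM in shNC (-0.39 ± 0.20, edgeR adjusted p = 0.319). These genes share 452 exon bases on the same strand, so their counts may be split between them. HOXD3 had 2.78, 1.86 and 2.76 CPM in shPNISR, against 4.86, 2.78 and 3.26 CPM in shNC, where shPNISR 1 and shNC 2 had the same rounded value (-0.56 ± 0.28, edgeR adjusted p = 0.295). HOXD4, HOXD8 and HOXD9 had log2 fold changes of -0.52 ± 0.26, -0.24 ± 0.21 and -0.33 ± 0.20, all with overlapping groups, and HOXD1 had 0.29 ± 0.41 on few reads.

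HOXC cluster genes, on chromosome 12 (53938765 to 54056030, GRCh38), were fitted below 0 in 5 of 8 cases, with a median of -0.23, and the gene that passed went the other way. HOXC12, a tail-end gene, had 31, 27 and 39 counts in shPNISR, against 10, 13 and 14 in shNC, which is 1.84, 1.67 and 2.39 CPM in shPNISR and 0.552, 0.842 and 0.932 CPM in shNC. The groups did not overlap and shNC 2 lay within the range of the shNC libraries. HOXC12 rose in shPNISR to 255% of the shNC level (1.97 ± 0.376 against 0.775 ± 0.199 CPM, SD, n = 3 each), with a log2 fold change of 1.35 ± 0.35 (SE) and an edgeR adjusted p of 0.0388. It is the lowest of the described genes per kilobase in shNC, and 7 of 16 alternatives ended its call: library totals (adjusted p = 0.0591), DESeq2 (adjusted p = 0.0588), the GC and length correction (adjusted p = 0.0646), and leaving out shNC 1 or any 1 shPNISR library (edgeR adjusted p from 0.0596 to 0.235). HOXC12 shares no exon base with another annotated gene.

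HOXC13, the gene beside HOXC12 and an activator of hair keratins, showed no such increase, with 14.1, 14.5 and 14.0 CPM in shPNISR, against 17.4, 15.1 and 16.0 CPM in shNC (log2 fold change -0.19 ± 0.15, edgeR adjusted p = 0.526). HOXC11, on its other side, had 0.07 ± 0.15. HOXC8, a gene of the lower thorax, had 3.32, 3.29 and 4.05 CPM in shPNISR, against 4.58, 5.70 and 6.59 CPM in shNC, and the groups did not overlap (-0.66 ± 0.22, edgeR adjusted p = 0.122). HOXC9, which sets thoracic motor neuron identity in mouse, had 13.7, 12.6 and 14.5 CPM in shPNISR, against 19.9, 13.1 and 19.4 CPM in shNC, with shNC 2 inside the shPNISR range (-0.36 ± 0.17, edgeR adjusted p = 0.279). HOXC10, its neighbour, had 17.8, 21.2 and 15.9 CPM in shPNISR, against 22.5, 21.5 and 22.4 CPM in shNC (-0.27 ± 0.15, edgeR adjusted p = 0.34). HOXC4 had 18.5, 17.4 and 18.7 CPM in shPNISR, against 22.7, 20.9 and 22.8 CPM in shNC (-0.28 ± 0.14, edgeR adjusted p = 0.286). HOXC4 shares 484 exon bases with HOXC6, whose log2 fold change was 0.03 ± 0.16.

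HOXB cluster genes, on chromosome 17 (48528526 to 48729178, GRCh38), hold the largest share of HOX reads, and none of them passed with edgeR (1 at an unadjusted p under 0.05) or limma voom. They were fitted below 0 in 5 of 9 cases, with a median of -0.05. HOXB9 had 170.4, 155.1 and 158.5 CPM in shPNISR, against 187.9, 185.4 and 183.4 CPM in shNC, without overlap (log2 fold change -0.20 ± 0.10, edgeR adjusted p = 0.313). HOXB7 had 52.5, 61.2 and 48.4 CPM in shPNISR, against 46.7, 46.4 and 53.9 CPM in shNC, with shNC 3 inside the shPNISR range (0.14 ± 0.13, edgeR adjusted p = 0.594). HOXB6 came nearest to passing in this cluster. It had 70.6, 69.1 and 76.9 CPM in shPNISR, against 97.7, 88.7 and 96.4 CPM in shNC (-0.38 ± 0.11, edgeR adjusted p = 0.0621), and it passed with DESeq2 (adjusted p = 0.0284) and after the GC and length correction (edgeR adjusted p = 0.0153). Of its exon bases, 16.6% are shared with HOXB3 and 16.3% with the antisense HOXB-AS3.

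The HOXB genes with higher values in shPNISR differed little. HOXB4, used to expand blood stem cells, had 28.5, 28.3 and 26.1 CPM in shPNISR, against 25.6, 24.5 and 24.8 CPM in shNC, without overlap (log2 fold change 0.15 ± 0.13, edgeR adjusted p = 0.582). HOXB8, a gene of myeloid progenitors, had 45.7, 43.0 and 43.0 CPM in shPNISR, against 40.5, 37.4 and 42.1 CPM in shNC (0.14 ± 0.12, edgeR adjusted p = 0.585), and its value was -0.02 after the GC and length correction. HOXB13, the tail-end gene known from the prostate, had 34.0, 34.2 and 30.9 CPM in shPNISR, against 31.9, 33.5 and 33.0 CPM in shNC (0.01 ± 0.12, edgeR adjusted p = 0.979). HOXB2, HOXB3 and HOXB5 had log2 fold changes of -0.12 ± 0.17, -0.14 ± 0.13 and -0.05 ± 0.13.

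Summed over its described genes, the HOXA cluster had 190.5, 197.3 and 188.4 CPM in shPNISR, against 269.4, 235.1 and 290.5 CPM in shNC, and the HOXD cluster had 162.0, 160.4 and 168.8 CPM in shPNISR, against 226.6, 212.0 and 224.9 CPM in shNC. The ratios of the means were 0.725 for HOXA and 0.740 for HOXD. The HOXB cluster had 518.4, 496.0 and 505.5 CPM in shPNISR, against 559.7, 527.6 and 564.1 CPM in shNC (ratio 0.920), and the HOXC cluster had 99.8, 99.2 and 102.9 CPM in shPNISR, against 118.4, 105.4 and 118.5 CPM in shNC (ratio 0.882). In all 4 clusters no shPNISR sum reached the lowest shNC sum, and in each the lowest shNC sum was that of shNC 2. Scaled by library totals alone, shPNISR 3 reached shNC 2 in HOXB (525.8 against 525.7 CPM) and in HOXC (107.0 against 105.0 CPM), while HOXA and HOXD stayed apart. HOXA genes made up 19.9% ± 0.661 of HOX counts in shPNISR and 23.0% ± 1.24 in shNC, and HOXB genes 52.6% ± 0.713 in shPNISR and 47.9% ± 0.899 in shNC (SD, n = 3 each). HOXC genes made up 10.5% ± 0.189 in shPNISR and 9.91% ± 0.162 in shNC, and HOXD genes 17.0% ± 0.423 in shPNISR and 19.2% ± 0.432 in shNC. These sums are descriptions, given without a test, and they weigh the most abundant genes most.

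Genes were also grouped by their place in the cluster. Of paralog groups 1 to 8, 15 of 20 tested genes were fitted below 0 with a median of -0.26, and 1 fell. Of groups 9 to 13, 12 of 15 were below 0 with a median of -0.33, 2 fell and 1 rose. Over all tested genes 52.1% were below 0, 0.832% were called lower and 2.30% higher. Of the paralog group 13 genes HOXD13 fell, and HOXA13 (-0.33), HOXB13 (0.01) and HOXC13 (-0.19) did not pass. Differences between these paralogs were not tested.

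The groups did not overlap in 16 HOX genes, 13 lower in shPNISR and 3 higher, where 9.58% of all tested genes were lower and 11.5% higher without overlap. The lower ones were HOXA4, HOXA5, HOXA9, HOXA11, HOXB6, HOXB9, HOXC4, HOXC8, HOXC10, HOXC13, HOXD3, HOXD11 and HOXD13, and the higher ones HOXB4, HOXB8 and HOXC12. At an unadjusted p under 0.05 there were 11 HOX genes among 2862 of the 16102 tested. The highest library was shNC 3 in 13 of the 35 genes and shNC 1 in 11, and the lowest was shPNISR 2 in 13 and shPNISR 3 in 8. Over all 16102 tested genes the highest was shNC 3 in 3167 and shNC 1 in 2935. The lowest was shPNISR 2 in 3156 of them and shPNISR 3 in 2258.

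By the median gene, shNC 2 lay between shPNISR and the other shNC libraries in HOXA, HOXC and HOXD, but not in HOXB. This library was below both other shNC libraries in 23 of 35 HOX genes (65.7%), against 6124 of all 16102 tested genes. Among the 23 were HOXB4, HOXB7, HOXB8 and HOXC11, which were fitted higher in shPNISR, so in them shNC 2 lay farther from shPNISR. Measured from the averaged shNC 1 and shNC 3 levels, the median HOX gene lay at -0.32 (log2) in shPNISR and at -0.14 in shNC 2. In the HOXA cluster these medians were -0.66 in shPNISR and -0.45 in shNC 2, and in HOXD -0.46 in shPNISR and -0.28 in shNC 2. In HOXC they were -0.27 in shPNISR and -0.09 in shNC 2, and in HOXB 0.00 in shPNISR and -0.12 in shNC 2. Without shNC 2, edgeR called 9 of 36 tested HOX genes lower (HOXA3, HOXA4, HOXA5, HOXA9, HOXA10, HOXB6, HOXC9, HOXD10 and HOXD13) and 1 higher (HOXC12), where 4.52% of all 16500 tested genes were lower and 7.78% higher. The log2 fold changes without shNC 2 were -0.94 for HOXA5, -0.91 for HOXA9, -0.46 for HOXD13 and 1.42 for HOXC12, so HOXD13 and HOXC12 hardly moved and the HOXA genes did.

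**Figure D4:**
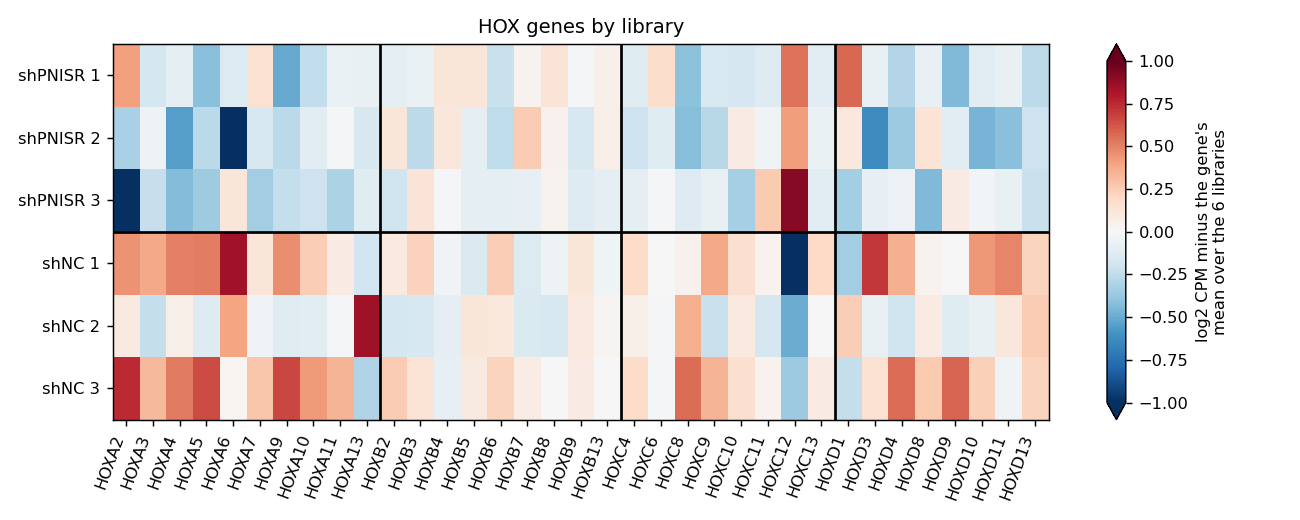
Log2 CPM (with 0.1 CPM added) of each of the 35 HOX genes in each library, minus the mean of that gene over the 6 libraries, with shPNISR rows above shNC rows and colours ending at -1 and 1. The HOXA genes are mostly blue in shPNISR and red in shNC 1 and shNC 3, shNC 2 is pale or blue in most of them, and HOXA13 stands out in shNC 2.

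The HOX clusters also hold microRNA genes, whose products are known to bind HOX transcripts. The mature sequences are shown (RefSeq, GRCh38.p14), since the members can be grouped by them, with the seed, bases 2 to 8, in capitals.
hsa-miR-196a-5p: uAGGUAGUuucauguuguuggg
hsa-miR-196b-5p: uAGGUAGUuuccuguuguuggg
hsa-miR-10a-5p: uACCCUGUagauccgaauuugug
hsa-miR-615-3p: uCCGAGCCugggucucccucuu
The miR-196 pair shares a seed and comes from MIR196A1 in the HOXB cluster, MIR196A2 in the HOXC cluster and MIR196B, which lies within HOXA9. Its seed match, ACTACCT, is in the 3′ UTR of 8 of 38 listed HOX genes (HOXA5, HOXA7, HOXA9, HOXB1, HOXB6, HOXB7, HOXB13 and HOXC8), against 6.1% of 19083 genes with a 3′ UTR. HOXA7 has 4 matches, HOXA9 and HOXC8 have 2 each and the others 1 each. Of the 7 tested members with a match, 5 were fitted below 0 with a median of -0.38, and HOXA5 and HOXA9 fell. Of the 28 without one, 22 were below 0 with a median of -0.28, 1 fell and 1 rose. The 28 include HOXB8, whose miR-196a site, described below, differs from the complement within the seed match. The split therefore follows exact letters and does not divide targets from other genes. The seed match of miR-10a, ACAGGGT, is in HOXA3 and HOXB3, against 10.5% of genes, and that of miR-615-3p, GGCTCGG, in HOXB4 and HOXC6, against 2.3%.

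HOXB8 carries the site best known for near-complete pairing with miR-196a, and no other listed HOX gene matched more than 15 of the 22 bases. The site starts at base 411 of the 3′ UTR (GENCODE 29, chromosome 17), matches 21 of the 22 bases of the complement and differs by A18G, counted from 1 at the 5′ end of the complement. It is shown with the differing base in capitals.
HOXB8: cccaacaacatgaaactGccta
complement of hsa-miR-196a-5p: cccaacaacatgaaactaccta
HOXB8 did not pass (0.14 ± 0.12, as above). Mature microRNAs were not measured in these libraries, and among the microRNA genes of the clusters MIR196A1 alone had more than 2 counts in any library, with 23, 4 and 25 in shPNISR and 40, 25 and 12 in shNC.

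Of the related gene lists, the PBX, MEIS and PREP partners of HOX proteins had no called member among 9 tested by edgeR, DESeq2 or limma voom (4 at an unadjusted p under 0.05), with 7 below 0 and a median of -0.32. For comparison with each list, 2862 of all 16102 tested genes had an unadjusted p under 0.05, and 52.1% were below 0. PBX2, the partner gene of highest level, was at 99.3 ± 3.49 CPM in shPNISR and 105.2 ± 5.47 CPM in shNC (SD, n = 3 each). Of the noncoding RNAs of the clusters, 14 of 18 were tested, none was called by any of these tools (4 at an unadjusted p under 0.05), 8 were below 0 and the median was -0.09. HOXB-AS3 had 25.9 ± 4.25 CPM in shPNISR and 21.8 ± 2.17 CPM in shNC, and HAGLR had 18.1 ± 1.85 CPM in shPNISR and 16.6 ± 3.32 CPM in shNC (SD, n = 3 each). The genes beside the clusters had no called member among 27 tested (2 at an unadjusted p under 0.05, none by the other tools), with 15 below 0 and a median of -0.03. HNRNPA1 and HNRNPA3 were at 2030.3 ± 178.1 and 818.6 ± 62.4 CPM in shPNISR, against 2100.6 ± 115.3 and 877.4 ± 51.5 CPM in shNC (SD, n = 3 each).

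CDX1, a caudal homeodomain factor of the intestinal epithelium, fell. It had 3.20, 3.85 and 3.13 CPM in shPNISR, against 7.67, 6.73 and 6.73 CPM in shNC (log2 fold change -1.06 ± 0.21, edgeR adjusted p = 0.00798), with shNC 2 alongside the other shNC libraries. Leaving out shPNISR 1 or shPNISR 3 ended the call (edgeR adjusted p of 0.0686 and 0.0515). It was the called gene among 4 tested ParaHox and EVX genes, whose median was -0.14, and CDX2, its more abundant relative, was at 0.05 ± 0.13 (edgeR adjusted p = 0.873).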

How the data were processed

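The values deposited are raw read counts per gene, whole numbers without normalization by the authors, judged from totals that differ between libraries. The submitters' processing notes name HISAT2 2.0.4 and GRCh38. Counter, annotation release and use of strand are not stated there or in the labels. Replicates differed beyond sampling noise (chi-square per degree of freedom at least 9.1) and were kept separate. With edgeR 4.0.16 (R 4.3.3), genes were filtered by filterByExpr (minimum count 10, minimum total 15), TMM-scaled and compared by the robust, two-sided quasi-likelihood test, with p adjusted by Benjamini-Hochberg over 16102 genes at 0.05. SE is the fold change divided by the square root of F. In a simulation of the shPNISR and shNC comparison (3 libraries a group, 15871 genes) 91 of 100 2-fold and 36 of 100 1.5-fold changes and 12 of 15671 unchanged genes were called, so modest differences can be missed.

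Exon lengths, 3′ UTRs and overlaps came from GENCODE 29 (GRCh38), which held 58396 of 60664 IDs. Full statistics were given for called HOX genes, the 2 highest per kilobase in each cluster and those with groups that do not overlap; from related lists, called members or the 2 highest, of which 1 is not reported here. Other genes were named after their values were seen. The members and lists were chosen with earlier results of these data known. Alternatives were RLE, upper-quartile and library-total scaling, no filter, a minimum mean of 1 CPM, limma 3.58.1 voom, DESeq2 1.42.0, no robust dispersion, a replicate block, a loess correction for GC content and length (span 0.4) and leaving out each library.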

Additional observations from a re-analysis of the deposited data

How the results depend on the processing

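Over 35 HOX genes and their alternatives, 518 of 559 single-gene values kept direction and side of the threshold, 20 lost a call, 12 gained one and 9 reversed. The reversed values all belonged to genes that were not called: HOXA13 (-0.54 to 0.12 with a library left out, 0.12 without shNC 2), HOXB8 (-0.02 with the GC and length correction), HOXB13 (-0.11 with that correction, and -0.02 to 0.06 with a library left out, below 0 without shNC 1, shPNISR 1 or shPNISR 2), HOXC6 (-0.03 with the correction, -0.05 to 0.09 with a library left out, -0.05 without shPNISR 1) and HOXC11 (-0.05 to 0.16 with a library left out, -0.05 without shPNISR 3). The HOX genes called lower were 6 with no filter and 0 to 9 with a library left out, and those called higher were 0 with library totals, DESeq2 or the GC and length correction and 0 to 1 with a library left out. Over all genes, 642 were higher with no filter and 133 to 1284 with a library left out, and 71 were lower with library totals, 354 with no filter, 229 with DESeq2 and 30 to 746 with a library left out. In the related lists, where 3 genes were higher and 2 lower, 7 were higher with no filter and 1 to 11 with a library left out, and the lower ones were 1 with library totals or a mean of at least 1 CPM, 5 with no filter or the GC and length correction, and 0 to 13 with a library left out. The causes were not tested. Same-numbered libraries did not deviate together (r of 0.12, -0.08 and -0.15), and shPNISR 2 with shNC 3 had an r of 0.31. These values are deviations within groups of 3 libraries, so they cannot show whether the libraries were paired. With the replicate block 390 genes were higher and 118 lower, with 1 HOX gene higher and 3 lower. Of the 4 HOX genes called, HOXC12 rests on the fewest reads, 10 to 39 a library.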

Other observations

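The upstream and chromatin gene lists are given beside all 16102 tested genes, of which 2.30% were called higher and 0.832% lower. Of all tested genes, 2862 had an unadjusted p under 0.05 with edgeR. The fitted value was below 0 in 52.1% of them, with a median of -0.01. Of 15 tested retinoid receptors and enzymes, CRABP2, which carries retinoic acid to its receptors, rose, with 521.9, 589.5 and 447.3 CPM in shPNISR, against 270.4, 385.1 and 314.4 CPM in shNC (log2 fold change 0.68 ± 0.14, edgeR adjusted p = 0.00923). Leaving out shNC 1 or shPNISR 1 ended that call (edgeR adjusted p of 0.0557 and 0.0548). Of these 15 genes, 4 were fitted below 0 and the median was 0.22. In 12 of them shNC 2 lay above both other shNC libraries, against 6017 of all 16102 tested genes. None of 30 Polycomb genes was called by edgeR, DESeq2 or limma voom (5 at an unadjusted p under 0.05), with 18 below 0 and a median of -0.07, and the most abundant, RBBP7 and RBBP4, were at 412.4 ± 17.6 and 332.2 ± 13.6 CPM in shPNISR, against 396.2 ± 16.8 and 357.5 ± 22.7 CPM in shNC. None of 22 trithorax and MLL genes was called by these tools (5 at an unadjusted p under 0.05), with 18 below 0 and a median of -0.24. HCFC1 and WDR5 were at 158.3 ± 35.2 and 135.3 ± 13.3 CPM in shPNISR, against 191.7 ± 42.4 and 145.2 ± 13.2 CPM in shNC. The 12 CTCF and cohesin genes, which shape chromatin loops, were all fitted below 0 with a median of -0.18, none was called by these tools and 0 had an unadjusted p under 0.05 with edgeR. SMC1A and RAD21 were at 369.5 ± 42.0 and 207.7 ± 22.1 CPM in shPNISR, against 406.9 ± 55.4 and 221.9 ± 11.3 CPM in shNC (SD, n = 3 each).

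Among 9 tested colorectal epithelial markers, CDH17, an intestinal cadherin, rose (1.32 ± 0.14, edgeR adjusted p = 5.74e-05), and so did KRT19, an epithelial keratin (0.61 ± 0.15, edgeR adjusted p = 0.0365). DESeq2 and limma voom called both and also LGALS4 higher, which did not pass with edgeR (0.71 ± 0.19, edgeR adjusted p = 0.0642). All 9 were fitted above 0 with a median of 0.25, against a median of -0.01 over all tested genes, of which 2.30% were called higher. Here too shNC 2 lay above both other shNC libraries in 7 of 9, against 6017 of all 16102 tested genes. LYZ, which encodes lysozyme and stood in the leukocyte list, fell on few reads, with 1, 5 and 8 counts in shPNISR, against 16, 21 and 21 in shNC (-2.05 ± 0.51, edgeR adjusted p = 0.0337). The call of KRT19 ended in 5 of 16 alternatives and that of LYZ in 4 of 15.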
